A study of Cucumis melo with 62 samples.

Results

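Transcript levels in melon (Cucumis melo) fruit of the cultivar TTDV were set against those of the cultivar F39, both grown in North Carolina in 2019 and picked at maturity, approximately 45 days after flowering. The comparison rests on 6 of the 62 RNA-seq libraries of the study, 3 of TTDV and 3 of F39, chosen by their labelled cultivar, location and year. All 6 carry the genotype label WT and the tissue label fruit. The labels do not name the layer of the fruit sampled, and do not say whether fruit were pooled or whether libraries of a cultivar came from separate plants. Each p-value therefore measures spread between libraries, pooled over the 13 groups of the table, and that spread may be technical. The question was which transcripts differ between the cultivars at this site, and which of those differences were also measured at other sites. The other groups of the same table were TTDV and F39 from Georgia, Arizona, California and Uvalde (Texas) in 2019 and from Uvalde in 2018, and TTDV from Indiana in 2019. Of the 29980 gene IDs in the table, 14333 were compared. These had at least 3 of the 6 North Carolina values 1 unit or more above the lowest value of the table, which is the value of a count of 0.

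A melon fruit ripens by softening its flesh, storing sucrose, losing or keeping chlorophyll, forming carotenoids in orange types and releasing volatile esters. In climacteric cultivars a burst of the hormone ethylene drives much of this programme through changes in transcript levels, while other cultivars ripen with little ethylene. Cultivars therefore can differ at harvest both in genes that one line carries or transcribes and the other does not, and in how far the ripening programme has run. Neither the deposited files nor the reference gene table pair the gene IDs with product names. Genes are given here by ID alone, no role is attached to any of them, and the fruit label could not be checked against tissue markers.

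The 3 TTDV libraries held 21217274, 25170415 and 14054276 reads, and the 3 F39 libraries held 31333150, 21197079 and 19268427. Between 18224 and 18756 genes had a read in a TTDV library, against 17511 to 17973 in an F39 library. The 10 most abundant genes took 6.56%, 7.88% and 15.0% of the reads in TTDV replicates 1, 2 and 3, and 8.92% to 11.6% in the F39 libraries. Replicate numbers only name libraries. Levels below are normalised reads, recovered from the deposited values and divided by each library's size factor, so they compare libraries for 1 gene. Between genes they also depend on transcript length, and they are used there only as numbers of reads. A count of 0 allows up to 1.68 to 5.16 normalised reads in a TTDV library and 1.52 to 2.33 in an F39 library, for counting error only.

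TTDV replicate 3 stood apart from the other 5 libraries. Across the 14333 genes it correlated with TTDV replicates 1 and 2 at r = 0.812 and 0.863, and with the F39 libraries at 0.805 to 0.838. TTDV replicates 1 and 2 correlated with each other at 0.978, and the F39 libraries among themselves at 0.970 to 0.977. TTDV replicates 1 and 2 were thus closer to each F39 library, at 0.926 to 0.946, than to their own replicate 3. The library nearest to TTDV replicate 3 among all 38 of the table was F39 Uvalde 2019 replicate 3, with r = 0.976. That Uvalde library also stood apart from its own group, at r = 0.838 to 0.852. The median squared difference of these 2 libraries' counts was 10.4 times the Poisson value. That ratio was 15.2 to 20.9 between the F39 North Carolina libraries and 21.9 between TTDV replicates 1 and 2. Where counts vary beyond counting error the ratio rises with depth, so it does not rank these pairs. A read was worth 1.72 normalised reads in TTDV replicate 3 and 1.33 in the Uvalde library, against 0.507 to 0.776 in the other 5 North Carolina libraries. All of these correlations are across genes, which are not independent replicates, and carry no test. The median SD of a gene was 0.50 units over the 3 TTDV libraries, 0.18 over TTDV replicates 1 and 2, and 0.22 over the F39 libraries, against 0.19 to 0.47 in the 11 other groups. Results below are therefore given with all 6 libraries and again without TTDV replicate 3. Why this library stands apart was not tested.

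**Figure D1:**
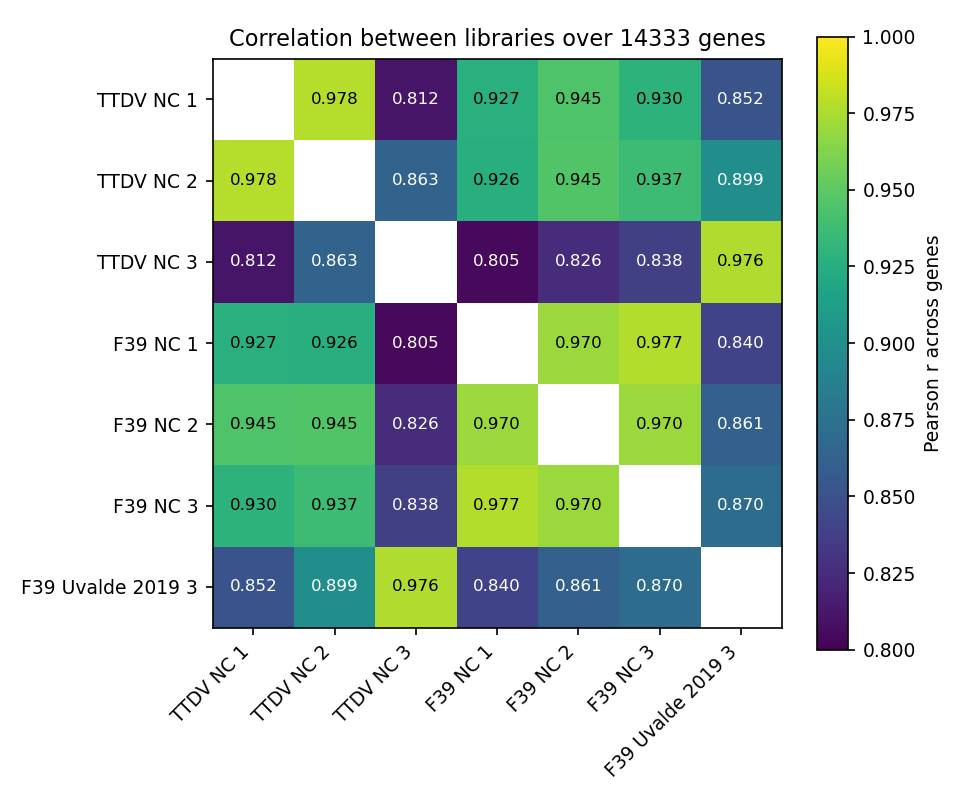
Pearson correlation across 14333 genes between the 6 North Carolina (NC) libraries and F39 Uvalde 2019 replicate 3, with TTDV rows above F39 rows. TTDV NC 3 reaches 0.976 with the Uvalde library, and at most 0.863 with any North Carolina library.

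The cultivar labels were read on 150 marker genes chosen at Arizona, California and Uvalde 2018, where TTDV and F39 libraries did not overlap and differed by at least 1 unit in the same direction. Of these markers, 105 were higher in TTDV and 45 higher in F39. TTDV replicates 1, 2 and 3 lay on the TTDV side in 90.7%, 89.3% and 62.7% of the markers, and F39 replicates 1, 2 and 3 lay on the F39 side in 84%, 72.7% and 86.7%. Every North Carolina library thus lay on its labelled side for most markers, TTDV replicate 3 for the fewest. On a scale where F39 is 0 and TTDV is 1, its median position was 0.73, against 0.99 and 0.98 for TTDV replicates 1 and 2 and -0.02 to 0.07 for the F39 libraries. The Uvalde 2019 libraries went against their labels, with 6% to 38% of markers on the labelled side. Among them F39 Uvalde 2019 replicate 3 had 38%, with a median position of 0.80. The Uvalde 2019 libraries are called "as labelled" below and left out of means over environments.

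At North Carolina TTDV differed from F39 in both directions, by up to 5.65 units in genes higher in TTDV and by up to -6.57 units in genes lower in TTDV. With all 6 libraries, 748 of the 14333 genes passed an adjusted p of 0.05 in limma, which is 5.22%. TTDV was higher in 402 of them (2.8% of the genes) and lower in 346 (2.41%). The majority direction turned with the processing, to 317 higher and 359 lower under quantile normalization, and to 171 higher and 246 lower with a filter at 3 units in place of 1. An unadjusted p under 0.05 was reached by 3091 genes. The TTDV and F39 libraries overlapped in only 19 of the 748, and did not overlap in 388 genes higher and 341 lower in TTDV. Among all genes compared, 25.1% did not overlap, 13.2% with TTDV higher and 11.9% with TTDV lower. In bulk tissue, fewer cells of a type and less RNA per cell cannot be told apart.

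Most of these differences were moderate. Differences are TTDV minus F39 on the deposited scale, on which a doubling is worth 0.40 units at 10 normalised reads, 0.81 at 100 and 0.97 at 1000. The median absolute difference of the 748 genes was 1.38 units, against 0.39 over all 14333. Between 1 and 2 units lay 231 of the genes higher in TTDV and 194 of those lower. At 3 units or more lay 37 higher and 25 lower, and under 1 unit lay 65 higher and 77 lower.

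The genes higher in TTDV had fewer reads behind them than the genes lower in TTDV, with a median over the 6 libraries of 112 against 331 normalised reads, where all compared genes had a median of 265. The genes were split by their mean number of reads into 4 equal bins. In the lowest bin, 149 of the 209 past the threshold were higher in TTDV. In the highest bin, 44 of the 117 were. The filter let in 242 genes through TTDV libraries alone and 43 through F39 libraries alone. How far such genes make up the excess in the lowest bin was not tested. The share past the threshold was 5.83%, 6.14%, 5.64% and 3.27% from the lowest to the highest bin. Read totals showed what share of the reads these genes took. The 402 genes higher in TTDV took 1.69%, 2.09% and 2.17% of the reads of TTDV replicates 1, 2 and 3, and 0.391%, 0.581% and 0.552% of the reads of F39 replicates 1, 2 and 3. The 346 genes lower in TTDV took 1.504%, 1.29% and 0.423% in TTDV, and 4.05%, 3.40% and 3.18% in F39. These shares describe genes chosen on the same libraries and were not tested.

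Without TTDV replicate 3, 340 genes passed the threshold, which is 2.37%. TTDV was higher in 212 (1.48% of the genes) and lower in 128 (0.893%), and an unadjusted p under 0.05 was reached by 2065. In all 340 the 2 remaining TTDV libraries did not overlap with F39, as was so for 44.7% of all genes compared. Both counts held 263 genes, 163 higher and 100 lower in TTDV, which is 35.2% of the 748 and 77.4% of the 340. No gene past the threshold in either had the opposite sign in the other. The 485 genes past it with all 6 libraries only had a median absolute difference of 1.23 units, against 0.93 for the same genes without TTDV replicate 3. In 434 of these 485 (89.5%), TTDV replicate 3 lay farther from F39 than the mean of TTDV replicates 1 and 2. In each of the 77 genes past it without TTDV replicate 3 only, that library lay nearer to F39. Both patterns follow largely from how these 2 sets of genes were defined. The count with all 6 libraries was 1493 without TTDV replicate 1, 340 without TTDV replicate 3, 229 without F39 replicate 1 and 361 without F39 replicate 3. The count of 340 was 91 and 83 when TTDV replicate 1 or 2 was left out as well, and 145 and 194 without F39 replicate 1 or 3. With only the compared groups in the fit, 93 genes passed with all 6 libraries and 1085 without TTDV replicate 3.

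**Figure D2:**
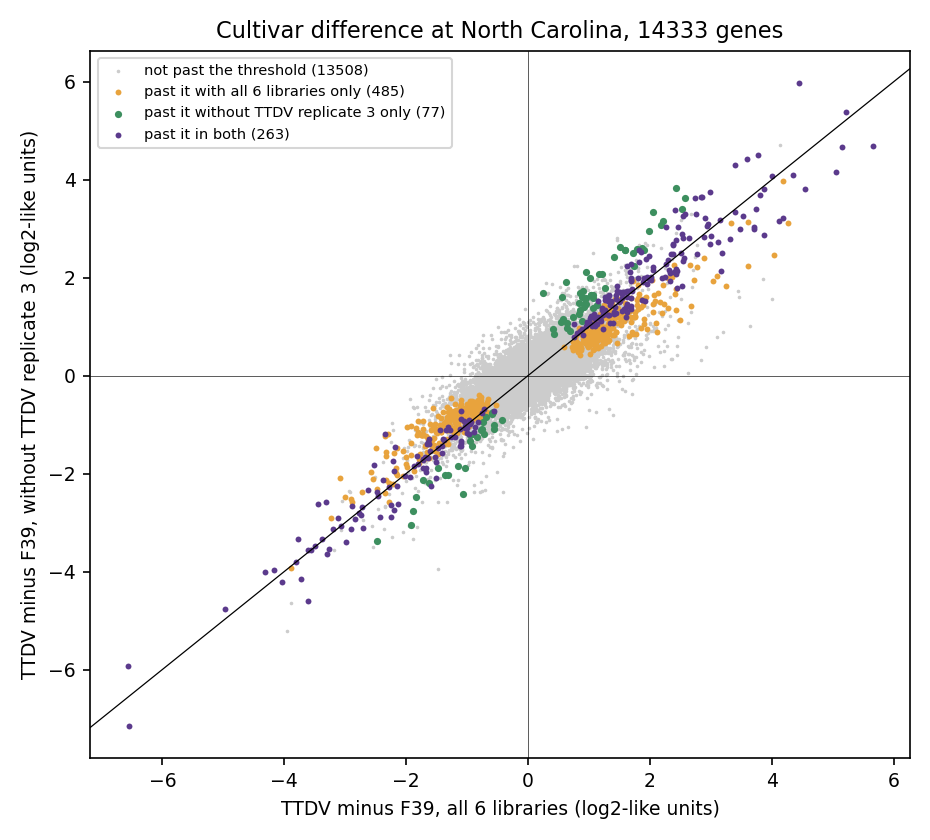
Each point is 1 of 14333 genes, placed by its difference TTDV minus F39 with all 6 libraries (horizontal) and without TTDV replicate 3 (vertical), in log2-like units, with the line of equality. The 263 genes past the threshold in both run along the line to beyond 5 units on either side, and the 485 past it with all 6 libraries only lie mostly nearer to 0.

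The largest differences reached over 5 units in either direction. MELO3C011761.2 had 1303, 1997 and 12109.8 normalised reads in TTDV, against 19.8, 68.6 and 21.7 in F39. Every TTDV library lay far above every F39 library, and TTDV replicate 3 was well above the other TTDV libraries. The difference was 5.65 ± 1.06 units (SE; limma adjusted p = 0.00147) and 4.69 without TTDV replicate 3 (adjusted p = 0.0214). MELO3C024745.2 had 805, 1034 and 645 in TTDV and 2.03, 0 and 2.33 in F39, averaging 828 ± 196 in TTDV and 1.45 ± 1.27 in F39 (SD, n = 3 each). Its 3 TTDV libraries were close together, and its F39 libraries were at or near 0. It differed by 5.22 ± 0.70 units (limma adjusted p = 2.48e-05), and by 5.38 without TTDV replicate 3. Only its TTDV libraries brought MELO3C024745.2 past the filter on low values, so its p-value is no separate support.

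Among the genes lower in TTDV, MELO3C006254.2 had 315, 232 and 49.8 normalised reads in TTDV and 16894, 21209 and 18273 in F39. The F39 level was high in each of the 3 libraries, and the lowest TTDV library was replicate 3. The difference was -6.57 ± 1.33 units (limma adjusted p = 0.0034), and -5.94 without TTDV replicate 3 (adjusted p = 0.0287). MELO3C016167.2 had 141, 184 and 648 in TTDV and 28005, 30888 and 24746 in F39. Here TTDV replicate 3 was the TTDV library nearest to F39, still far below it. The difference was -6.55 ± 0.56 units (limma adjusted p = 8.66e-09), and -7.15 without TTDV replicate 3 (adjusted p = 1.31e-08). For MELO3C016167.2 the difference lay between -7.84 and -6.61 units in Georgia, Arizona, California and Uvalde 2018, past the threshold in each. MELO3C006254.2 was less even, at -5.04 units in Georgia, 2.13 in Arizona, -5.54 in California and -2.28 in Uvalde 2018, past the threshold in California alone among these.

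Passing over the genes already named, those with the largest differences by the fit without TTDV replicate 3 were past the threshold with it too. MELO3C021914.2 had 1662, 2066 and 46.4 normalised reads in TTDV and 4.06, 2.08 and 9.31 in F39. TTDV replicate 3 lay between the other TTDV libraries and F39 without reaching F39. The difference was 5.98 ± 0.56 units without that library (limma adjusted p = 1.41e-07) and 4.45 with it (adjusted p = 0.000433). MELO3C034452.2 had 289, 613 and 1236 in TTDV and no read in any F39 library. It was therefore compared only through its TTDV libraries, so its p-values are no separate support. It differed by 4.66 ± 0.90 units without TTDV replicate 3 (limma adjusted p = 0.00277) and by 5.15 with it. With TTDV replicate 2 left out as well it was 4.16 (adjusted p = 0.107). Elsewhere F39 libraries had 171 to 293 normalised reads of it in Georgia, and none in Arizona. They had 6.44 to 249 in California and 0 to 573 in Uvalde 2018.

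In the other direction, MELO3C013359.2 had 79.2, 97.1 and 48.1 normalised reads in TTDV and 4828, 3779 and 1909 in F39. All TTDV libraries lay below 100, and the F39 libraries themselves spread widely. The difference was -4.77 ± 0.93 units without TTDV replicate 3 (limma adjusted p = 0.00335) and -4.97 with it. When TTDV replicate 1 or 2 was left out as well, MELO3C013359.2 missed the threshold (adjusted p = 0.0756 and 0.0636). MELO3C025608.2 had 25.6, 67.3 and 548 in TTDV and 4014, 1183 and 1193 in F39. TTDV replicate 3 was the TTDV library nearest to F39. The difference was -4.60 ± 0.98 units without it (limma adjusted p = 0.0072) and -3.62 with it (adjusted p = 0.0203). The call without TTDV replicate 3 was lost for MELO3C025608.2 on leaving out TTDV replicate 1, TTDV replicate 2 or F39 replicate 1 as well (adjusted p = 0.157, 0.0673 and 0.0621). In Uvalde 2018 the sign was the opposite, at 3.07 units (limma adjusted p = 0.018).

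The gene past the threshold with the most reads was MELO3C007438.2, at 37139, 86674 and 154868 normalised reads in TTDV and 2882, 10789.8 and 11514 in F39. The groups did not overlap, but each spread over several fold. The difference was 3.47 ± 0.71 units (limma adjusted p = 0.00375), and 2.99 without TTDV replicate 3 (adjusted p = 0.0356). Without F39 replicate 1 it was 2.83 (adjusted p = 0.0524). MELO3C030731.2, with the next most reads of those higher in TTDV, had 12763, 15201 and 24519 in TTDV and 6956, 11918 and 7781 in F39. TTDV replicate 1 and F39 replicate 2 almost met. It differed by 0.96 ± 0.28 units (limma adjusted p = 0.0437), and by 0.69 without TTDV replicate 3, no longer past the threshold (adjusted p = 0.259). It also missed the threshold without TTDV replicate 2, F39 replicate 1 or F39 replicate 3 (adjusted p = 0.057, 0.216 and 0.146).

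Among the genes lower in TTDV, those with the most reads also missed the threshold without TTDV replicate 3. MELO3C017598.2 had 14519.8, 18341 and 6865 normalised reads in TTDV and 25832, 37854 and 33440.2 in F39. Its difference of -1.38 ± 0.34 units (limma adjusted p = 0.0158) was -0.97 without TTDV replicate 3 (adjusted p = 0.147), and it missed the threshold without F39 replicate 2 or 3 (adjusted p = 0.065 and 0.0588). MELO3C015428.2 had 7665, 7261 and 5238 in TTDV and 40466, 26392 and 25039 in F39. The TTDV libraries were close together and all well below F39. Its difference of -2.17 ± 0.62 units (limma adjusted p = 0.0391) was -1.998 without TTDV replicate 3 (adjusted p = 0.144). Only without TTDV replicate 1, of the 6 libraries left out in turn, did MELO3C015428.2 keep its call, the other adjusted p values running from 0.0645 to 0.175. For these 3 genes past the threshold with all 6 libraries only, TTDV replicate 3 was in each case the TTDV library farthest from F39. Being past it with all 6 libraries only favours that position.

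Some genes were read in 1 cultivar and hardly at all in the other at North Carolina. At most 3 normalised reads in every F39 library, with every TTDV library 1 unit or more above the lowest value (about 9.08 normalised reads), were found for 75 genes. The reverse was found for 14. Of the 75, 32 had no read in any F39 library, and of the 14, 9 had no read in any TTDV library. Past the threshold with all 6 libraries were 62 of the 75 and 11 of the 14, where 5.22% of all genes were. Such a gene can pass the filter on low values only through the cultivar in which it is read, so these counts are a description. Their read numbers were modest, with a median of 37.9 normalised reads in TTDV for the 75 and 32.9 in F39 for the 14. Over 100 normalised reads in each library of the cultivar were reached by 5 of the 75 and by 2 of the 14. By TTDV replicates 1 and 2 alone, the counts were 118 and 24.

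MELO3C024483.2 had 161, 520.1 and 242 normalised reads in TTDV and 0, 0 and 0.776 in F39. MELO3C014076.2 had 179, 146 and 186 in TTDV and 0, 0.693 and 0 in F39. In either gene the single F39 library that was not at 0 held 1 read. F39 did have reads of both at other sites. F39 libraries held 221 to 828 normalised reads of MELO3C024483.2 in Arizona and 22.9 to 67.2 in California, and 0 to 131 of MELO3C014076.2 in Georgia. In the reverse set, MELO3C030687.2 had no read in any TTDV library and 221, 139 and 334 normalised reads in F39. MELO3C035133.2 had 0, 1.68 and 0 in TTDV and 137, 149.8 and 163 in F39. TTDV libraries of Georgia, Arizona, California, Uvalde 2018 and Indiana held 0 to 1.78 normalised reads of MELO3C030687.2 and 0 to 1.23 of MELO3C035133.2. These 4 genes were chosen for the levels just given, so no test of their difference at North Carolina is reported.

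**Figure D3:**
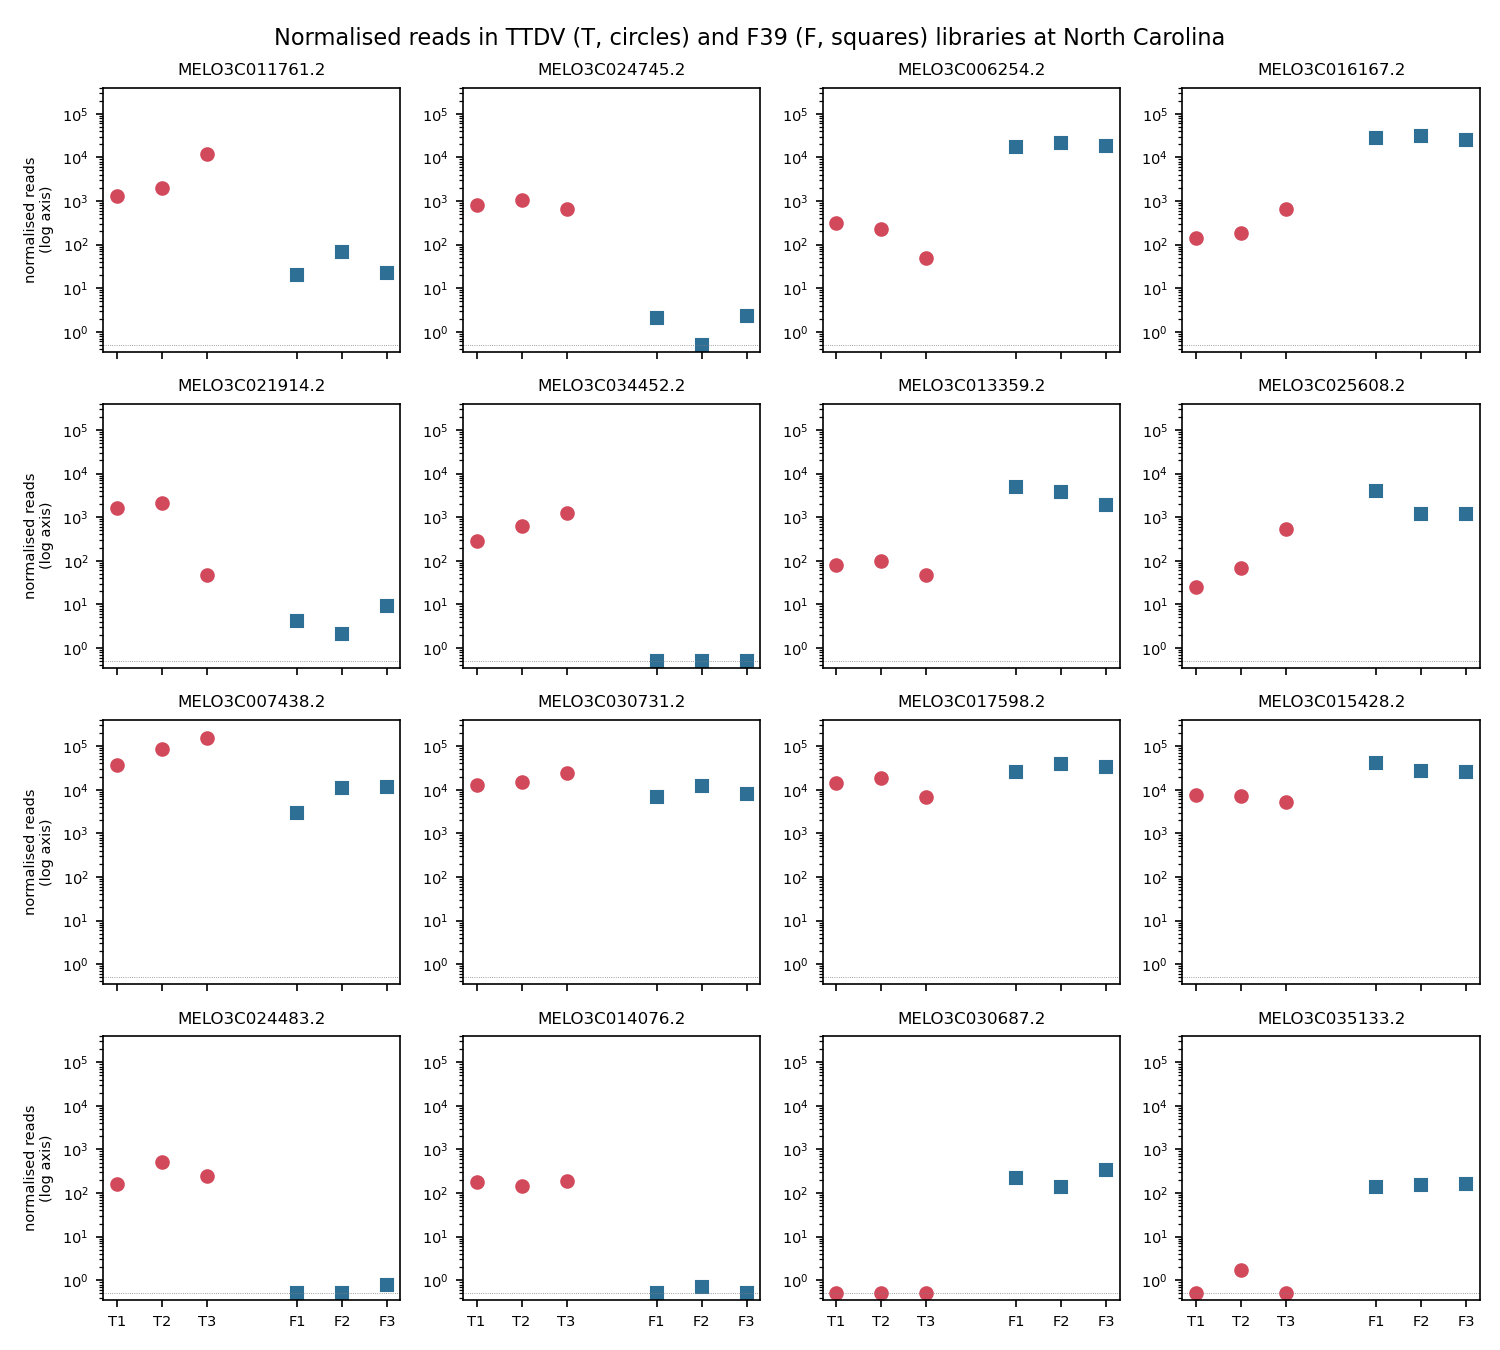
Normalised reads (log axis) of 16 genes in TTDV replicates 1 to 3 (T, circles) and F39 replicates 1 to 3 (F, squares) at North Carolina, 1 panel per gene, with points on the dotted line standing for no read. The rows show first the largest differences with all 6 libraries, then the largest of the remaining genes without TTDV replicate 3. Below them are the genes past the threshold with the most reads and the genes read in 1 cultivar. The cultivars do not overlap in any panel, as the choice of genes required.

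TTDV replicate 3 departed from both other TTDV libraries in a large set of genes. In 979 genes it lay at least 2 units from both other TTDV libraries, which lay within 1 unit of each other, 449 higher and 530 lower. That is 7.02% of the 13941 genes in which TTDV replicates 1 and 2 lay within 1 unit. Read the same way, TTDV replicates 1 and 2 departed in 2 and 0 genes, and the F39 libraries in 18, 27 and 15. Of the 979 genes, 53 passed the threshold with all 6 libraries, where 5.22% of all genes did, and 42 without TTDV replicate 3, where 2.37% did.

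In 742 of the 979 departing genes (75.8%), F39 Uvalde 2019 replicate 3 lay within 1 unit of TTDV replicate 3. The next library was TTDV Uvalde 2019 replicate 2 with 30.7%, and the F39 North Carolina libraries had 4.29% to 7.05%. Over all 14333 genes, 93.6% of the values of F39 Uvalde 2019 replicate 3 lay within 1 unit of TTDV replicate 3. TTDV replicates 1 and 2 lay within 1 unit of it in 57.2% and 63.3% of genes, while they lay within 1 unit of each other in 97.3%.

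The 2 largest departures in each direction were as follows. MELO3C013292.2 had 9.31, 33.1 and 5925 normalised reads in TTDV replicates 1, 2 and 3 and 1.52, 2.08 and 8.53 in F39, with 4323 in F39 Uvalde 2019 replicate 3. MELO3C006208.2 had 166.5, 332 and 33610.1 in TTDV and 151, 79.04 and 117 in F39, with 21463 in the Uvalde library. In both, TTDV replicate 3 was the only high library of the 6. MELO3C019906.2 had 3884, 4001 and 79.1 in TTDV and 3757, 3257 and 2032 in F39, with 578 in the Uvalde library. MELO3C009389.2 had 3488, 3416 and 105 in TTDV and 1413, 5579 and 2129.8 in F39, with 343 in the Uvalde library. In both of these TTDV replicate 3 was the only low library. None of the 4 passed the threshold for TTDV against F39.

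The cultivar difference at North Carolina was then set beside the same difference at sites that share no library with it. Of the 748 genes, the sign of the difference was the same in Georgia for 84.2% of them, in Arizona for 68.5%, in California for 77.4% and in Uvalde 2018 for 63.9%. Over all 14333 genes the shares were 61.7%, 49.8%, 53.1% and 51.4%. Without TTDV replicate 3 the shares among the 340 genes were 92.4%, 82.9%, 92.4% and 75.6%, against 64.9%, 53.7%, 63.1% and 55.2% over all genes. The sign was the same in all 4 of these environments for 288 of the 748 genes (38.5%, against 12.3% of all genes), and for 199 of the 340 (58.5%, against 15.1%). Of the 134 markers of the label check that were compared at North Carolina, 119 had the sign they were chosen with, and 73 passed the threshold there (63 without TTDV replicate 3), where 5.22% of all genes did (2.37% without it).

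Fewer genes passed the threshold both at North Carolina and at another site. In Georgia, where 2.33% of genes passed, 109 did so in the same direction, which is 14.6% of the 748 and 32.6% of the 334 genes past the threshold in Georgia. In Arizona, where 1.38% passed, there were 92, which is 12.3% of the 748 and 46.5% of the 198 in Arizona. In California, where 18.8% passed, there were 255, which is 34.1% of the 748 and 9.47% of the 2694 in California. In Uvalde 2018, where 22.6% passed, there were 212, which is 28.3% of the 748 and 6.54% of the 3243 in Uvalde 2018. In opposite directions 6 genes passed in both at Georgia, 1 at Arizona, 19 at California and 59 at Uvalde 2018. Without TTDV replicate 3, the genes past the threshold in the same direction were 25% of the 340 at Georgia, 24.4% at Arizona, 58.8% at California and 42.7% at Uvalde 2018. The Georgia comparison has 2 TTDV libraries, and 2 of its F39 libraries lay on the F39 side for 60.7% and 59.3% of the markers only.

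At Uvalde 2019 as labelled, where 4.86% of genes passed the threshold, the signs were mostly turned round. The sign of North Carolina was found there for 8.29% of the 748 genes, against 30.1% of all genes, and for 9.12% of the 340, against 35.7%. In the same direction 1 gene passed the threshold at both, and in opposite directions 240 did. The libraries there went against their cultivar labels in the marker check above.

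**Figure D4:**
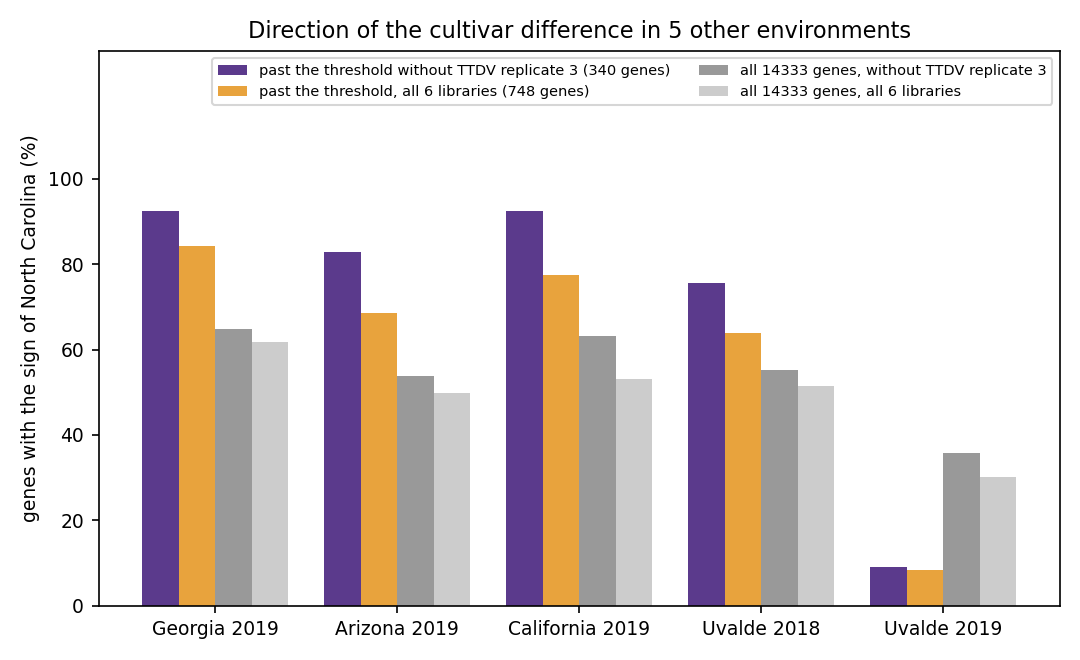
Percentage of genes whose TTDV minus F39 difference had the sign of North Carolina in each other environment, for the 340 genes past the threshold without TTDV replicate 3, the 748 past it with all 6 libraries, and all 14333 genes under either set of libraries. The 340 genes stand highest in the first 4 environments, at 75.6% to 92.4%, and both gene sets fall below 10% at Uvalde 2019 as labelled.

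A small set of genes separated the cultivars wherever both were grown, apart from Uvalde 2019 as labelled. Of all 14333 genes, 37 passed in the same direction at North Carolina, Georgia, Arizona, California and Uvalde 2018, with TTDV higher in 25 and lower in 12. Without TTDV replicate 3 there were 35. At Uvalde 2019 as labelled all 37 had the opposite sign, and 36 passed the threshold. The genes named next were picked for a shared direction and a large smallest difference over the environments above, apart from Uvalde 2019. How evenly they differ there is therefore no separate support.

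MELO3C031042.2 had 135, 170.0 and 309 normalised reads in TTDV and 0, 40.9 and 0 in F39 at North Carolina. F39 replicate 2 was the exception among F39 libraries, and still lay below every TTDV library. The difference was 2.99 ± 0.36 units (limma adjusted p = 4.59e-06), and 3.03 to 3.72 units in the 4 other environments. MELO3C027442.2 had 80.9, 157 and 583 in TTDV and no read in any F39 library. It was therefore compared only through its TTDV libraries, so its North Carolina p-value is no separate support. It differed by 3.71 ± 0.39 units (limma adjusted p = 2.98e-07), and by 2.91 to 3.74 units in the 4 other environments. TTDV libraries of those environments held 111 to 222 normalised reads of MELO3C027442.2, and F39 libraries 0 to 4.95. With only the compared groups in the fit, both missed the threshold (adjusted p = 0.105 for MELO3C031042.2 and 0.0525 for MELO3C027442.2).

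MELO3C020675.2 had 22.1, 25.2 and 79.1 normalised reads in TTDV and 871, 464 and 640.1 in F39. The highest TTDV library was replicate 3, well below each F39 library. The difference was -3.29 ± 0.38 units (limma adjusted p = 2.64e-06), and -3.82 to -2.79 units in the 4 other environments. MELO3C034386.2 had 1.75, 8.98 and 10.3 in TTDV and 200.3, 158 and 185 in F39. It was close to absent from TTDV and even across F39. The difference was -2.73 ± 0.26 units (limma adjusted p = 7.09e-08), and -3.52 to -2.85 units in the 4 other environments. At Uvalde 2019 as labelled the same 4 genes differed by -3.20, -3.81, 2.30 and 2.91 units, in the order given.

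Whether the cultivar difference itself differed between North Carolina and the mean of Georgia, Arizona, California and Uvalde 2018 was tested in the same fit. With all 6 libraries 47 genes passed, which is 0.328%, 21 with a more positive difference at North Carolina and 26 with a more negative one. An unadjusted p under 0.05 was reached by 2475 genes. In 38 of the 47 the sign at North Carolina was opposite to that of the mean elsewhere, and in 9 it was the same and the difference larger. Choosing genes by their gap favours opposite signs, and the same share over all genes was not counted. A small mean of the other sign also counts as opposite, such as the -0.09 units of MELO3C004195.2. Without TTDV replicate 3, 12 genes passed (0.0837%), 5 more positive and 7 more negative, and 11 of them were among the 47. An unadjusted p under 0.05 was then reached by 1028 genes. The split of the 12 moved with the scaling, to 2 and 7 of 9 genes under quantile normalization and to 0 and 3 of 3 with voom. The count of 47 was 777 without TTDV replicate 1, 12 without TTDV replicate 3, 10 without F39 replicate 1 and 25 without F39 replicate 2. The count of 12 fell to 0 in limma without TTDV replicate 1, TTDV replicate 2 or F39 replicate 1, with 870, 442 and 679 genes at an unadjusted p under 0.05, and to 1 and 7 without F39 replicate 2 or 3.

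MELO3C004195.2 had 508, 571 and 4304 normalised reads in TTDV and 14.7, 29.8 and 57.4 in F39 at North Carolina. TTDV replicate 3 was the highest by a wide margin, and no F39 library came near TTDV. Its difference was 4.19 units at North Carolina and -1.15 to 0.81 elsewhere, a gap of 4.28 ± 0.79 units (limma adjusted p = 0.0109). Without TTDV replicate 3 the gap was 3.31 (adjusted p = 0.131), no longer past the threshold. MELO3C000157.2 had nearly equal values, 443, 631 and 4268 in TTDV and 17.2, 27.7 and 62.1 in F39, and a gap of 4.10 ± 0.78 units (limma adjusted p = 0.0145; 3.12 and 0.144 without TTDV replicate 3). The ratio of MELO3C004195.2 to MELO3C000157.2 lay between 0.853 and 1.15 in the 6 libraries and between 0.4 and 1.28 over all 38. How reads shared by similar genes were counted is not given, so whether these 2 IDs were measured separately is uncertain. Without F39 replicate 1 both missed the threshold (adjusted p = 0.0757 for MELO3C004195.2 and 0.0828 for MELO3C000157.2).

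On the negative side, MELO3C011921.2 had 83.8, 211 and 36.1 normalised reads in TTDV and 3411, 1498 and 913 in F39. Its difference of -3.78 units at North Carolina stood against -0.63 to 1.70 elsewhere, a gap of -4.21 ± 0.93 units (limma adjusted p = 0.0355), and -3.77 without TTDV replicate 3 (adjusted p = 0.232). It also missed the threshold without F39 replicate 1 or 2 (adjusted p = 0.209 and 0.0692). MELO3C000668.2 had 46.6, 40.95 and 0 in TTDV and 226, 348 and 100.1 in F39. The cultivar order was the reverse elsewhere, with differences of -2.34 units at North Carolina, 2.48 in Georgia, 0.82 in Arizona, 1.85 in California and 1.86 in Uvalde 2018. The gap of -4.09 ± 0.60 units (limma adjusted p = 0.00123) passed the threshold without TTDV replicate 3 too, at -3.40 (adjusted p = 0.0199). The North Carolina difference alone was then -1.65 (adjusted p = 0.0988), no longer past it. With F39 replicate 1 left out as well, the gap of MELO3C000668.2 also missed the threshold. In California MELO3C000668.2 had 471 to 569 normalised reads in TTDV and 103 to 143 in F39.

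**Figure D5:**
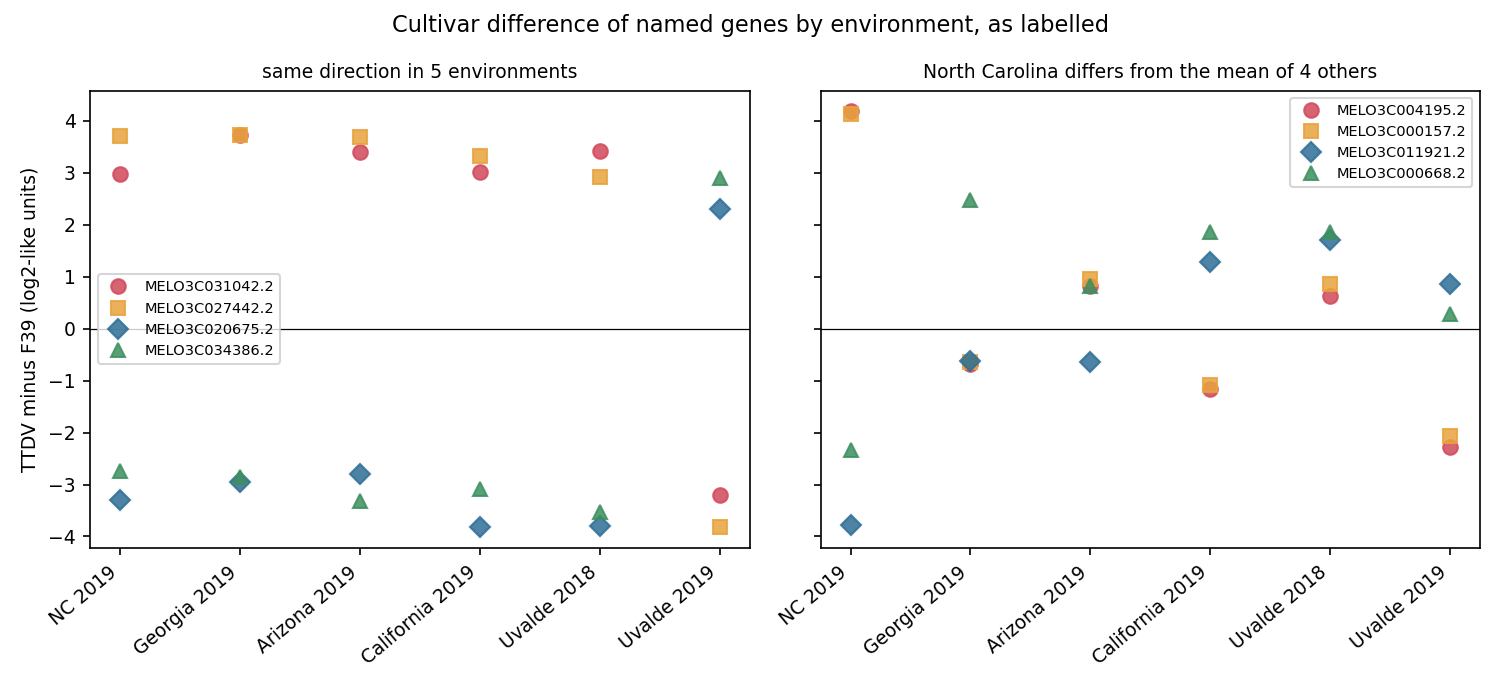
Difference TTDV minus F39 (log2-like units, group means) in each environment, as labelled, with North Carolina (NC) first, for 4 genes with the same direction in 5 environments (left) and 4 genes in which North Carolina differed from the mean of 4 others (right). The genes on the left were chosen for keeping their side of 0 up to Uvalde 2018, and lie on the other side at Uvalde 2019. Those on the right were chosen for standing apart from the mean of the other environments at North Carolina.

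Among the genes named above, 2 more passed the threshold for the gap from the mean elsewhere. Each did so in only 1 of the fits with and without TTDV replicate 3. The difference of MELO3C007438.2 was 1.995 units in Georgia, 0.08 in Arizona, 0.85 in California and -3.58 in Uvalde 2018. In Uvalde 2018 TTDV held 14924 to 18529 normalised reads of it, and F39 177035 to 229900.0. The gap between North Carolina and the mean of the 4 others was 3.64 ± 0.80 units (limma adjusted p = 0.0355), and 3.15 without TTDV replicate 3 (adjusted p = 0.249). MELO3C021914.2 was higher in TTDV by 4.16 units in Georgia, 0.89 in Arizona, 4.51 in California and 0.93 in Uvalde 2018. With all 6 libraries its North Carolina difference of 4.45 units lay between those of Georgia and California. Its gap passed the threshold only without TTDV replicate 3, at 3.35 units (limma adjusted p = 0.0274). That call was lost with F39 replicate 1 or F39 replicate 2 left out as well.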

How the data were processed

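RNA was sequenced from the 6 libraries described above. Per the labels' protocols, extraction was with Trizol and the library kit was one for mRNA. The authors deposited variance-stabilised log2-like values for each gene ID and library. DESeq and DESeq2 are named in the submitters' processing notes, without a version. Which aligner, counter, build and annotation they used is not given in the sources used here. Because the lowest value stands for 0 reads, the transform could be inverted, and at least 99.97% of values in each library fell within 0.05 of a whole read count. The transform shrinks differences of weakly read genes.

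The deposited values of the 38 libraries of the table, in 13 groups, were fitted with limma 3.58.1 (run in R 4.3.3) using a coefficient for each group, empirical Bayes moderation with trend and robust settings, and Benjamini-Hochberg adjustment over 14333 genes. Of the 29980 IDs, 15647 were below the filter and 7319 had no read in the 6 libraries. All 6 values passed it in 12079 genes, while 242 genes passed with the 3 TTDV libraries and no F39 library, and 43 with the 3 F39 libraries and no TTDV library. The fit was tested on simulated data in which a gene had the same spread in every library. No library stood apart there, so the simulation does not cover the setting of TTDV replicate 3. Python 3.11.15 with numpy 2.4.6, pandas 2.3.3 and matplotlib 3.10.9 did the rest. The Weslaco table was not used.

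At most 2 IDs higher and 2 lower in TTDV were named per comparison, by the largest difference without overlap between groups, the most reads, the highest lowest library where the other cultivar had no more than 3 normalised reads, the largest smallest difference over 5 environments, or the largest departure of TTDV replicate 3. IDs already named under an earlier rule were passed over. The reference gene table matched 0 IDs, so no gene list was tested. The comparison, rules and tests were chosen with earlier results of these data known.

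Alternatives were no filter, a filter at 3 units (about 111 normalised reads), a filter over the whole table, quantile normalization, plain moderation (no trend, not robust), the compared groups only, no Uvalde 2019 libraries, sample weights, voom on recovered reads, and each library left out in turn. The fits of the gap between environments without F39 Georgia 2019 replicates 2 and 3, and its alternatives without TTDV replicate 3, were chosen after seeing the data.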

Additional observations from a re-analysis of the deposited data

Results flagged for a closer look

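A cultivar difference at North Carolina that differed from the mean difference of Georgia, Arizona, California and Uvalde 2018, by limma's test of the gap itself, brought 47 genes to notice with all 6 libraries and 12 without TTDV replicate 3. Among the named genes the gap was 3.64 units for MELO3C007438.2, 4.28 for MELO3C004195.2, 4.10 for MELO3C000157.2, -4.21 for MELO3C011921.2 and -4.09 for MELO3C000668.2. For MELO3C021914.2 it was 3.35 units without TTDV replicate 3 (limma adjusted p = 0.0274) and 1.82 with it (limma adjusted p = 0.267).

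Opposite directions at North Carolina and at Uvalde 2019 as labelled brought another group to notice. In 18 of the 28 named genes the libraries lay one way round at North Carolina and the other way round at Uvalde 2019, without overlap at either, and that difference was not tested. Over all genes, 240 passed limma's threshold at both sites in opposite directions. The Uvalde 2019 libraries lay on the labelled side for 6% to 38% of the cultivar markers. Dixon's check for a single outlying value was not applied to groups of 3 libraries.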

How the results depend on the processing

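For 24 named genes, 339 of 385 values under the alternatives run stayed past the threshold and 46 missed it, and 11 genes passed under every alternative run. The 24 include the genes chosen for being read in 1 cultivar. Of these, MELO3C014076.2, MELO3C030687.2 and MELO3C035133.2 are among the 11, an outcome largely fixed by that choice. MELO3C024745.2, also among the 11, was compared only through its TTDV libraries. That no sign changed was largely fixed by choosing genes whose groups do not overlap. Counts moved more, 40 of 66 by over 1.5 times, and the cause was not tested. The 748 genes at North Carolina became 417 with the filter at 3 units (which tests fewer genes), 93 with only the compared groups in the fit, 1171 without Uvalde 2019 and 3934 with sample weights, and 229 to 1493 leaving out 1 library. The 340 without TTDV replicate 3 became 145, 1085, 624 and 2411 under the same 4 choices, 519 without F39 Uvalde 2019 replicate 3, and 83 to 326 leaving out 1 library. The gap of 47 genes became 30, 120, 136 and 1926, then 16 without TTDV replicate 3 and F39 Uvalde 2019 replicate 3, 20 with voom, 251 with Uvalde 2019 in the mean, 166 without F39 Georgia replicates 2 and 3, and 10 to 777 leaving out 1 library. Its 12 genes without TTDV replicate 3 became 2 with the filter at 3 units, 22 without Uvalde 2019, 575 with sample weights, 3 with voom, 36 with Uvalde 2019 in the mean, 22 without F39 Georgia replicates 2 and 3, and 0 to 7 leaving out 1 library. The 3 counts of 0 in limma went with 442 to 870 genes at an unadjusted p under 0.05. Where 1 TTDV library remained, it was assumed to vary like the other groups. The sample weights were 0.874, 3.77 and 0.0896 for TTDV replicates 1, 2 and 3, and 1.61, 1.01 and 1.69 for F39. No paired analysis was possible because the columns carry no replicate numbers. The scale is compressed at low counts, and what depth limits was not tested.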
